A study of Mus musculus with 8 samples.

Results

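The kinases and phosphatases of the pyruvate dehydrogenase complex were followed in an immortalized mouse brown adipocyte line. The 6 genes Pdk1, Pdk2, Pdk3, Pdk4, Pdp1 and Pdp2 were taken by their symbol in the platform annotation, and 7 of the 25697 probes of the array read them, with 2 probes for Pdp2 and 1 for each of the others. All 6 were among the 16593 named genes tested. Total RNA was profiled on 8 arrays, and the stated purpose was to characterise what the compound Z16078526 does to brown adipocytes. Cells differentiated for 8 days were kept for 18 h with the vehicle DMSO (4 arrays) or with 10 µM Z16078526 (4 arrays, called treated below). Both groups come from the same cell line, and the labels do not say whether the 4 samples of a group were separate cultures, and the p-values therefore describe spread among these samples alone, technical or not.

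Pyruvate dehydrogenase is the mitochondrial enzyme complex that turns pyruvate into acetyl-CoA and so links glycolysis to the TCA cycle and to fat synthesis. The PDK kinases phosphorylate its E1 alpha subunit and switch the complex off, and the PDP phosphatases remove the phosphate and switch it on again. PDK4 is the isoform best known for its induction in fasting and by fatty acids through PPAR receptors, PDK1 is a target of the hypoxia factor HIF-1, PDK2 is the widely expressed isoform, and PDP1 and PDP2 are the catalytic phosphatase subunits. In brown fat the balance between these enzymes bears on whether glucose carbon or fatty acids feed the respiratory chain.

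The 250 bases before the annotated start of Pdk4, the member with the strongest change, and of Pdp2, the member whose probes disagreed, are shown because they are the stretches nearest to where transcription of these genes begins. They come from RefSeq's annotation of GRCm38.p6 and run 5′ to 3′ on the gene's strand, which is minus for Pdk4 (chr6:5496279-5496528) and plus for Pdp2 (chr8:104591222-104591471). Capitals mark matches, on either strand, to the letters of a CCAAT box (CCAAT), a GC box (GGGCGG), the core of the hypoxia response element (ACGTG), a nuclear receptor motif (AGGTCA) and a forkhead motif (GTAAACA).
Pdk4: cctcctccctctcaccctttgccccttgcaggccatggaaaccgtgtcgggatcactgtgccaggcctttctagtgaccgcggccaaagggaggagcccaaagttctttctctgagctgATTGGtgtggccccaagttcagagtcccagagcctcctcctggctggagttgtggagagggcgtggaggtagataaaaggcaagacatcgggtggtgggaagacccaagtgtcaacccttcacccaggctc
Pdp2: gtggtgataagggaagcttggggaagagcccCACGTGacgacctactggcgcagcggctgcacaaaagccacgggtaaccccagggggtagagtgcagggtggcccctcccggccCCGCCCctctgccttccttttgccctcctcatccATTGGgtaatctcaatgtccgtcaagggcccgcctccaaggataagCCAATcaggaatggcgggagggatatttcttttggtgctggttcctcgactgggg
The Pdk4 window held 1 match, a CCAAT box beginning 131 bases before the start, a motif found in 33.85% of 32851 windows of the same length. The Pdp2 window held 2 CCAAT boxes, a GC box, which 32.74% of windows hold, and the palindrome CACGTG, in which ACGTG is read on both strands. ACGTG was found in 16.57% of windows, and the share with the whole palindrome was not counted. AGGTCA, present in 14.02% of windows, and GTAAACA, in 3.166%, were in neither. These are matches of letters and not measured sites, and no match says only that the letters are not in this window.

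Intensities below 16 were set to that floor and the log2 was taken, and groups were compared with limma over all genes, with calls at a Benjamini-Hochberg adjusted p under 0.05. Each array had 13528 to 13564 probes above the floor, and r across genes between 2 arrays was 0.9959 to 0.9966 for DMSO and 0.9929 to 0.9952 for treated samples. All 8 fat cell markers were above the floor on all arrays, from a DMSO mean of 93.7 for Fabp4 to 22846 for Adipoq, and of them Fabp4 and Cidec were called higher and Pparg and Lep lower in treated cells, Lep by 5.33-fold (adjusted p = 8.15e-05 in limma). Of 8 brown fat markers, Cidea, Cox8b, Ebf2 and Ppargc1a had DMSO means of 254 to 1168, Ucp1 was dimmer, at most 38.2 in DMSO and 93.4 in treated samples, Elovl3 passed the floor on 2 treated arrays, and Dio2 and Prdm16 never exceeded it. Deviations of treated 1 and treated 3 from their group mean ran opposite to each other, with r = -0.74 across genes with a mean log2 above 7. Deviations from a shared mean tend to run opposite in any case, so this r is not to be read against 0. The values of the members on these arrays are given singly for that reason.

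Of the 6 genes, Pdk4 rose in treated cells and no other passed the test. Over all genes tested 15.2% were called, 7.97% higher and 7.19% lower in treated cells. Among genes above the floor on all arrays, as all 6 members were, 30.5% were called and 16.1% were called higher. A count of 1 of 6 is thus close to the background. The median log2 difference was 0.09 over the 6 members and 0.02 over the 7965 genes above the floor on all arrays.

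Pdk4 gave intensities of 528.7, 562.6, 560.6 and 547.6 on the DMSO arrays and 1089.7, 874.7, 966.0 and 832.0 on treated arrays 1 to 4. All 4 treated arrays lay above all 4 DMSO arrays, as was the case for 10.6% of all genes, while in either direction the groups were apart for 19.8%. Both shares include the 5504 genes that never exceeded the floor and so could not separate. The share among genes above the floor on all arrays, as Pdk4 was, was not counted. The rise was 1.70-fold, with a 95% interval of 1.48 to 1.96 (adjusted p = 0.00218 in limma, with 4 arrays a group and a log2 difference of 0.77 ± 0.08, SE). The SD of the log2 values was 0.04 in DMSO and 0.17 in treated samples, so the treated arrays differed more among themselves. Pdk4 ranked 238 by size of rise among the 1323 genes called higher. When each array was left out in turn, the log2 difference stayed between 0.69 and 0.82 and the adjusted p between 0.00242 and 0.0104. The summed intensity of 7 measured preadipocyte and fibroblast markers moved with treatment, from 12951 to 15166 over the DMSO arrays to 8068 to 11451 over the treated arrays. Vim, the brightest of them, weighs most in this sum, with a mean of 9320 in DMSO and 6062 in treated samples. Dcn and Vim were called lower, Pdgfra, Pdgfrb, Col1a1 and Cd34 were not called, and Thy1 was at the floor throughout. The sum of 8 brown fat markers went from 3092 to 3540.1 in DMSO to 4840.5 to 5973 in treated samples, with Ucp1, Cidea and Cox8b higher. The part of either shift in the Pdk4 result was not tested, and in bulk RNA fewer cells of a type and less RNA per cell cannot be told apart. Markers of endothelium (5 measured, Cdh5, Kdr and Vwf at the floor), macrophages (2 measured, Ptprc at the floor) and skeletal muscle (5 measured, Myod1 and Ckm at the floor) summed to at most 88.9 on any array.

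**Figure D1:**
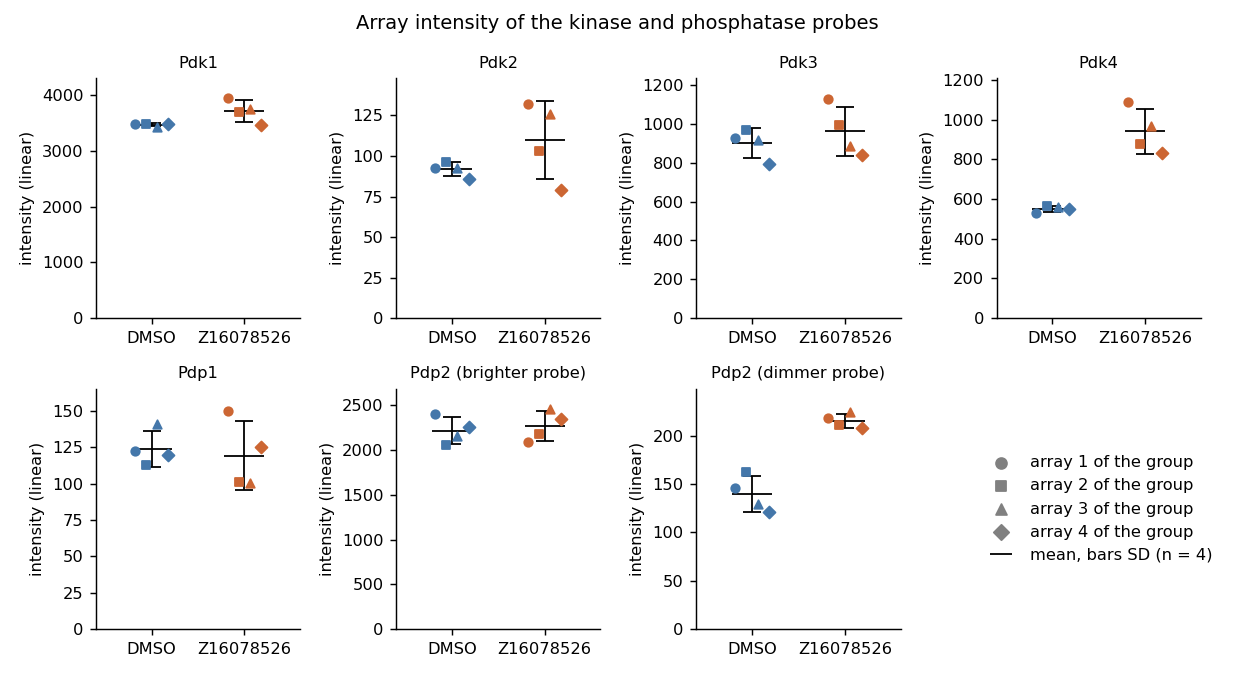
Intensity on a linear scale for the 7 probes, with a marker shape for each array number within a group, the group mean and its SD (n = 4). Pdk4 and the dimmer Pdp2 probe separate the groups, at 832.0 or more against 562.6 or less and at 208.3 or more against 162.7 or less, and the other 5 probes overlap.

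Pdk1, the HIF-1 responsive kinase, had the brightest probe of the 6 genes, with 3488, 3478, 3431 and 3481 in DMSO and 3958, 3692, 3746 and 3472 in treated samples. Treated 1, 2 and 3 lay above every DMSO array and treated 4 lay among them. The log2 difference was 0.10 ± 0.04 (1.07-fold, 95% interval 1.01 to 1.14, unadjusted p = 0.0381 and adjusted p = 0.162 in limma), so that a change of Pdk1 as large as that of Pdk4 lies outside the interval. An unadjusted p under 0.05 was seen for 25.1% of all genes. Of the 7965 genes above the floor on all arrays, as Pdk1 was, 3941 had one. Without treated 4 Pdk1 was called (log2 difference 0.13, adjusted p = 0.0305).

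Pdk3, an X-linked kinase known for high activity, read 928, 971, 916 and 792 in DMSO and 1126, 996, 886 and 841 in treated samples. The groups overlapped, and the log2 difference of 0.09 ± 0.11 (95% interval -0.17 to 0.35) did not pass (adjusted p = 0.851). Pdk2 was the dimmest of the kinase probes, with 92.4, 96.5, 92.4 and 86.1 in DMSO and 131.9, 102.8, 126.1 and 78.9 in treated samples. Treated 4 lay below every DMSO array and the other treated arrays above them. The log2 difference of 0.23 ± 0.18 did not pass (adjusted p = 0.617), and its 95% interval of -0.20 to 0.66 leaves room for a rise of 1.58-fold. Among the treated arrays, treated 1 was the highest and treated 4 the lowest for each of the 4 kinases, called or not.

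The probes of the kinases were of unlike brightness. In DMSO samples the mean intensities were 3469 ± 26.1 (SD, n = 4) for Pdk1, 902 ± 76.7 for Pdk3, 549.9 ± 15.6 for Pdk4 and 91.9 ± 4.30 for Pdk2, and in treated samples 3717 ± 199.6, 962 ± 127, 940.6 ± 114 and 109.9 ± 24.2. Pdk4 and Pdk3 thus gave similar readings in treated samples, after readings that did not overlap in DMSO. Probes bind their targets with different strength and the array gives no level per transcript length, so this order is one of probe signal and does not rank the amounts of the kinase mRNAs.

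Pdp1, the phosphatase subunit whose activity calcium stimulates, was dim, with 122.0, 112.7, 140.9 and 119.4 in DMSO and 149.96, 100.8, 100.3 and 125.1 in treated samples. Treated 1 lay above the DMSO arrays, treated 2 and 3 below them and treated 4 among them. The log2 difference was -0.07 ± 0.16 (95% interval -0.45 to 0.30, adjusted p = 1), and its sign turned without treated 2 or treated 3 (0.0019 and 0.0041).

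The 2 probes of Pdp2, the other phosphatase subunit, did not give the same result. The brighter probe, on which the gene was tested, read 2408, 2052, 2158 and 2256 in DMSO and 2086, 2176, 2464 and 2350.2 in treated samples. The groups overlapped and the log2 difference was 0.03 ± 0.07 (95% interval -0.14 to 0.20, adjusted p = 1). The dimmer probe read 146.4, 162.7, 129.5 and 121.0 in DMSO and 218.1, 211.1, 224.8 and 208.3 in treated samples, with every treated array above every DMSO array (17.9% of all probes, those at the floor included, had groups apart in either direction). It rose 1.55-fold (95% interval 1.32 to 1.82, log2 difference 0.63 ± 0.10, adjusted p = 0.00842 with all 25697 probes tested singly), where 12.7% of all probes were called and 6.76% were called higher. The log2 ratio of the dimmer to the brighter probe within an array rose by 0.60, with an SD of 0.24 in DMSO and 0.11 in treated samples (exact permutation test, two-sided, p = 0.0286, the smallest that 70 splits of 8 arrays can give). This test was chosen after the values were seen. Both probes carry the same RefSeq transcript in the annotation, and which of them follows the amount of Pdp2 mRNA was not tested. Of 2129 genes with at least 2 probes above the floor on all arrays, 150 (7.05%) had a dimmer probe called higher beside a brighter probe that was not called. Averaging the log2 values of both probes gave a difference of 0.33 ± 0.05 for Pdp2, which was called (adjusted p = 0.00987), so whether 1 or 2 of the 6 genes rose rests on the choice of probe.

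**Figure D2:**
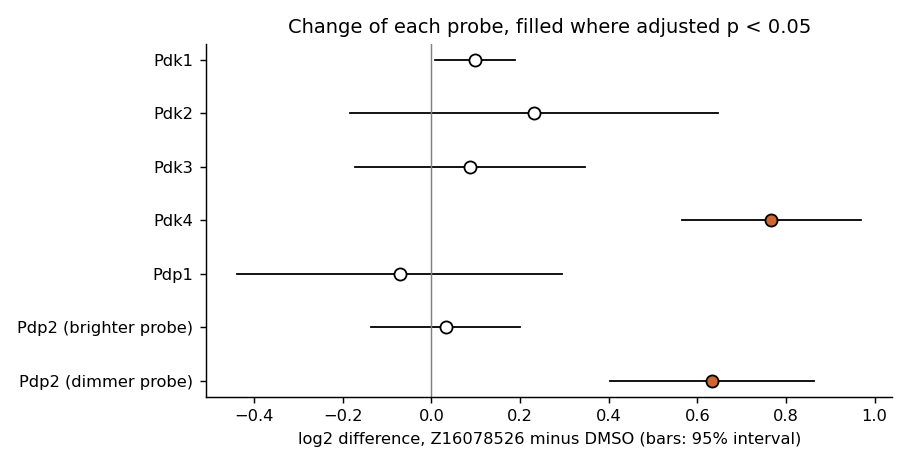
Log2 difference of treated minus DMSO samples for each of the 7 probes (points) with its 95% interval (bars), from limma on all probes singly, filled where the adjusted p is under 0.05. Pdk4 at 0.77 and the dimmer Pdp2 probe at 0.63 lie clear of 0, and the brighter Pdp2 probe at 0.03 does not.

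To compare the responses of the isoforms, the log2 ratio of each pair of genes was taken within every array, in which the strength of an array cancels. Against its DMSO mean, the ratio of Pdk4 to Pdk1 was 0.58 to 0.80 higher on the treated arrays, where the DMSO arrays spanned -0.06 to 0.04. The ratio to Pdk3 was 0.52 to 0.84 higher and that to Pdk2 0.36 to 0.82 higher, and the ratios to Pdp1 and Pdp2 (brighter probe) were 0.58 to 1.11 and 0.51 to 1.07 higher. In all 5 pairs the treated arrays lay apart from the DMSO arrays. These pairs share the Pdk4 signal, so they restate its rise rather than add 5 separate results. Each had an exact two-sided permutation p of 0.0286, the smallest the design allows, and an adjusted p of 0.0857 over the 15 pairs compared. None passed after adjustment, and none could with only these 5 of 15 pairs at the smallest p, so this outcome decides nothing. The mean differences in log2 change were 0.67 between Pdk4 and Pdk1, 0.68 between Pdk4 and Pdk3 and 0.54 between Pdk4 and Pdk2. Of the 10 pairs without Pdk4, the lowest unadjusted exact permutation p was 0.257, for Pdk2 and Pdp1, with a difference in log2 change of 0.30. With the dimmer probe of Pdp2 in place of the brighter one, the change of Pdk4 exceeded that of Pdp2 by 0.13 (exact permutation p = 0.286).

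**Figure D3:**
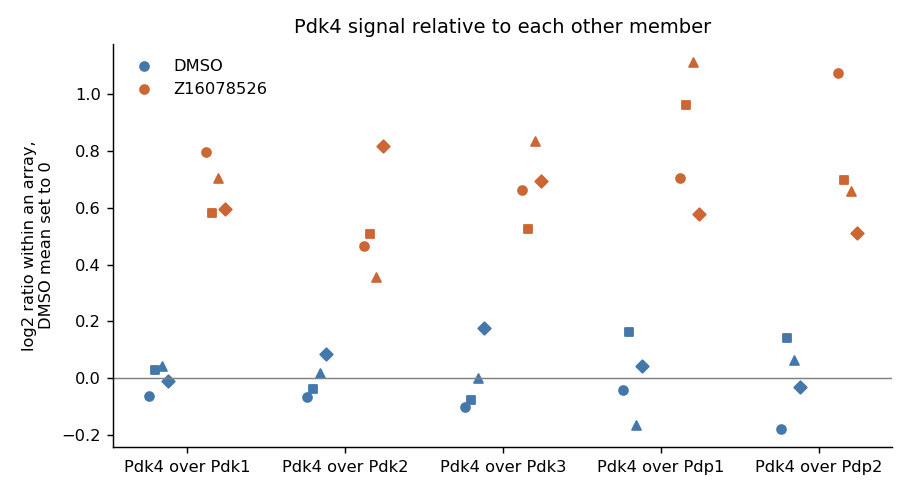
Log2 ratio of the Pdk4 signal to that of each other gene within an array, with the mean of the 4 DMSO arrays set to 0. Each point is an array, and the treated arrays lie above the DMSO arrays in all 5 pairs, with the lowest treated value, 0.36, for Pdk2.

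Subunit genes of the complex on which these enzymes act rose beside Pdk4. Pdha1, which encodes the E1 alpha subunit that carries the phosphorylation sites, read 8654, 8359.7, 8378 and 8281 in DMSO and 10597, 11017, 11459.8 and 11671 in treated samples (1.33-fold, log2 difference 0.41 ± 0.03, adjusted p = 0.000880). Dlat, the E2 subunit to which the kinases bind, read 213.5, 236, 211 and 180.3 in DMSO and 336, 346, 370.5 and 316 in treated samples (1.63-fold, 0.71 ± 0.09, adjusted p = 0.00374). Dld, the E3 subunit shared with other dehydrogenase complexes, read 348, 439.9, 273 and 305 in DMSO and 810.5, 660.4, 799 and 739 in treated samples (2.23-fold, 1.16 ± 0.16, adjusted p = 0.00457). For these 3 genes the treated arrays lay above the DMSO arrays without overlap, as was the case for 10.6% of all genes, those at the floor included.

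Of the 7 genes listed for the complex, 3 were called higher and 0 lower in limma (adjusted p under 0.05). The share called higher was 7.97% for all genes tested. It was 16.1% for genes exceeding the floor on every array, as 4 of these 7 did. The median log2 difference of the list was 0.09. That median was 0 for all genes tested, of which 5504 never exceeded the floor, and 0.02 for genes exceeding it on every array. Pdhb, the E1 beta subunit, read 6253, 5923, 6267 and 6222 in DMSO and 7650.3, 7204, 4952 and 6754 in treated samples, with treated 3 below every DMSO array and the others above, and did not pass (0.09 ± 0.13, adjusted p = 0.972). Without treated 3 it was called, at 0.22 (adjusted p = 0.0352). Its dimmer probe, examined after the values were seen, rose 1.77-fold (0.82 ± 0.14, adjusted p = 0.0111 over all probes), from 847 to 1176 over the DMSO arrays to 1473 to 2014 over the treated arrays. Pdhx, the E3 binding protein, and the testis form Pdha2 did not exceed the floor on any array, and Pdpr, the regulatory subunit of the phosphatase, was above it on 4 arrays only (0.05 ± 0.28, adjusted p = 1). Of 6 measured genes for the lipoyl cofactor that the E2 subunit carries, 0 passed in either direction in limma (1 at an unadjusted p under 0.05). Over all genes 15.2% were called, and 30.5% of those above the floor on all arrays, as 5 of these 6 were. The log2 differences ran from -0.46 for Mcat to 0.58 for Lipt2.

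Bckdk and Ppm1k encode the kinase and the phosphatase of the related branched-chain ketoacid dehydrogenase. On their tested probes Bckdk differed by 0.13 ± 0.08 (adjusted p = 0.452) and Ppm1k by -0.18 ± 0.07 (adjusted p = 0.145). In that complex 2 subunit genes rose, Dbt 1.69-fold (0.76 ± 0.12, adjusted p = 0.00850) and Bckdhb 1.42-fold (0.51 ± 0.07, adjusted p = 0.00457), while Bckdha had a log2 difference of -0.21 (adjusted p = 0.0998). On their tested probes 2 of these 5 genes were called, all 5 above the floor on all arrays, where 30.5% of genes were called. A second, slightly dimmer probe of Bckdk was called higher (0.20 ± 0.05, adjusted p = 0.0416 over all probes).

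Among 12 measured genes of pyruvate and lactate handling, Gpt2 was called higher (1.22-fold, adjusted p = 0.0270 in limma) and 0 were called lower. For comparison, 7.97% of all genes were called higher, and 16.1% of those above the floor on all arrays, as 10 of these 12 were. Gpt2 is the mitochondrial alanine aminotransferase that makes pyruvate and glutamate interconvert with alanine and ketoglutarate. The call of Gpt2 was lost in 6 of the 8 fits that left out an array, all but those without DMSO 1 and without treated 1, with an adjusted p of up to 0.0791. Lactate dehydrogenase Ldha (log2 difference 0.01), pyruvate kinase Pkm (-0.05) and pyruvate carboxylase Pcx (-0.02) did not pass, and Mpc1, Mpc2 and Ldhb were not analysed here. Of 9 measured genes of glucose entry and glycolysis 0 passed in limma, and 1 was called lower without treated 1 and without treated 3. All 9 were above the floor on all arrays, where 30.5% of genes were called. An unadjusted p under 0.05 was seen for 2 of them. It was seen for 25.1% of all genes and for 3941 of the 7965 genes above the floor on all arrays. The log2 differences ran from -0.31 for the insulin-regulated transporter gene Slc2a4 to 0.21 for Eno3.

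Of 22 measured genes of the list of fatty acid responsive PPAR targets 11 were called higher and 0 lower, in a list chosen with earlier results of these data known. For comparison, 7.97% of all genes were called higher, and 16.1% of genes above the floor on all arrays, as 19 of these 22 were. Angptl4, a lipoprotein lipase inhibitor often induced together with PDK4, rose 1.60-fold, from 6942 to 7650.3 in DMSO to 11149 to 12030.1 in treated samples (0.68 ± 0.04, adjusted p = 0.000449). The others with the smallest p were Cidea, a lipid droplet gene of brown fat (2.23-fold), Fabp4, the fatty acid binding protein of adipocytes (3.16-fold), and the hormone gene Fgf21 (3.36-fold), and the median log2 difference of the list was 0.40. Carnitine palmitoyltransferase Cpt2 (1.33-fold) and the trifunctional protein gene Hadhb (1.56-fold) rose as well. Cpt1a and Ucp3, both known PPAR targets, did not exceed the floor, while Acadm (-0.02) and Lpl (-0.02) did not pass.

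**Figure D4:**
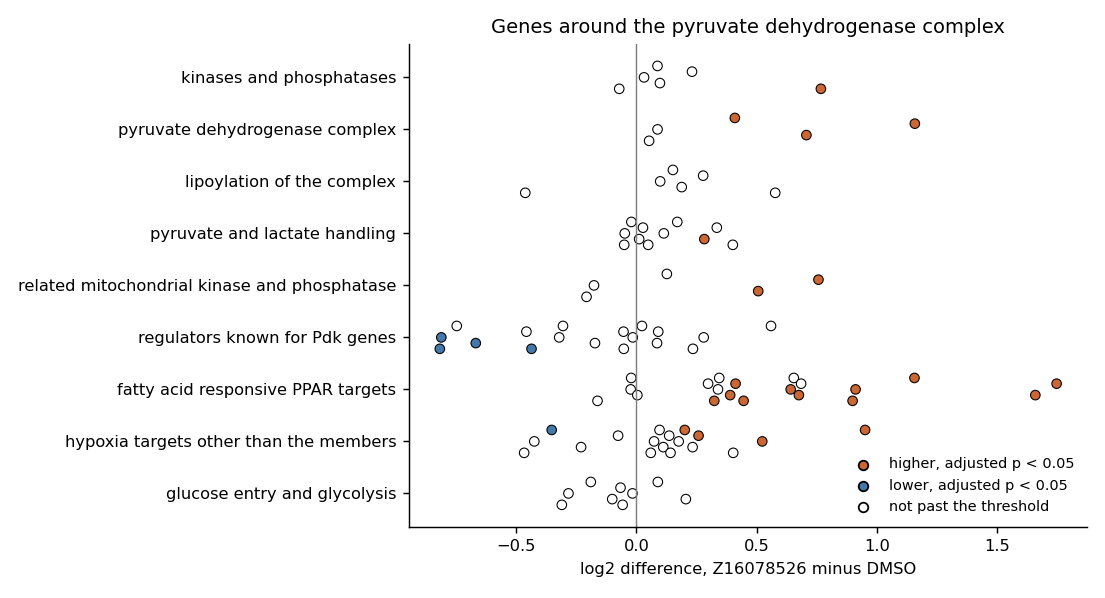
Log2 difference of treated minus DMSO samples for the 6 kinase and phosphatase genes and the members of 8 other lists that were above the floor on at least 1 array, each gene a point, coloured where the adjusted p is under 0.05. The PPAR target list, chosen with earlier results of these data known, has 11 genes higher and 0 lower. The share called higher was 7.97% of all genes and 16.1% of those above the floor on all arrays. The list of regulators has 0 higher and 4 lower (17.4%). In either direction 15.2% of all genes and 30.5% of those above the floor on all arrays were called, and 7.19% of all genes were called lower. Pdk4 at 0.77 is the only kinase past the threshold.

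Of 23 genes for factors known to act on Pdk genes, 0 were called higher and 4 lower, a share of 17.4%. Over all genes 15.2% were called in either direction and 7.19% were called lower. Of genes above the floor on all arrays, as 12 of these 23 were, 30.5% were called, and 1149 of 7965 were called lower. Foxo1, a forkhead factor that insulin keeps out of the nucleus and that induces PDK4 in muscle and liver, read 472, 488, 422 and 470.4 in DMSO and 266.9, 334, 277 and 292 in treated samples (1.59-fold lower, log2 difference -0.67 ± 0.08, adjusted p = 0.00303). Pparg, the receptor of fat cell differentiation, was 1.35-fold lower (-0.44 ± 0.05, adjusted p = 0.00309) and Srebf1, a regulator of lipid synthesis, 1.76-fold lower (-0.82 ± 0.14, adjusted p = 0.00961). A second probe of Srebf1 lay at the floor on all arrays. The size of the Pparg fall differed by probe. A dimmer probe fell 2.61-fold (-1.38 ± 0.25, adjusted p = 0.0152 in limma over all probes), and another did not pass (-0.79 ± 0.28, adjusted p = 0.142). Nr3c1, the glucocorticoid receptor gene, was dim, at 23.1 to 35.8 in DMSO and above the floor only on treated 1 (20.1) among treated arrays, and its call (-0.81, adjusted p = 0.0146) ended with robust variance (adjusted p = 0.0694), with a pseudocount of 16 (0.0752) and with a floor of 50. Ppard, Esrrg, Foxo3, Thrb and Stat5b lay at the floor on all arrays. Ppara was above the floor on 1 DMSO and 3 treated arrays and did not pass (0.56 ± 0.26, adjusted p = 0.260). With the covariate for uneven treated arrays, itself taken from the deviations of these arrays, Ppara was called at the same difference (adjusted p = 0.0406 in limma). That call is no separate evidence of a rise. Esrra (0.02, adjusted p = 1) and Ppargc1a (0.24, adjusted p = 0.229) did not pass.

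Pdk1 is itself a hypoxia target, and of 18 measured other hypoxia targets 4 were called higher and 1 lower, a share of 27.8%. Of genes above the floor on all arrays, as 17 of these 18 were, 30.5% were called, so the count is near the background. Hilpda, a lipid droplet protein gene that PPAR receptors also induce, rose 1.93-fold (adjusted p = 0.000497), the collagen hydroxylase gene P4ha1 1.44-fold (0.0114), the oxygen sensor gene Egln3 1.20-fold (0.0170) and the demethylase gene Kdm3a 1.15-fold (0.0258), all in limma. Kdm3a lost its call in 6 of the 8 fits that left out an array, and Egln3 without DMSO 1 (adjusted p = 0.0542). The carbonic anhydrase gene Car9 fell 1.28-fold (adjusted p = 0.00619), a call lost when its probes were averaged (adjusted p = 0.0579), and without treated 1 a second gene of the list was called lower. Vegfa (0.14), Slc2a1 (0.06) and Ndrg1 (0.07) did not pass, nor did Hif1a (-0.32 ± 0.32, adjusted p = 0.720), which ranged from 111 to 325 over the treated arrays. With the main deviation within groups, in which treated 1 and treated 3 oppose each other, as a covariate, Hif1a was called lower (-0.32 ± 0.07, adjusted p = 0.0241 in limma). This covariate was taken from the deviations of the same arrays, so it lowers the SE of any gene that follows it. The difference itself did not move, and the call is no separate evidence of a fall.

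The genes whose profile over the 8 arrays lay closest to that of Pdk4, each centred on its DMSO mean, were sought among 7964 genes above the floor on all arrays. The root mean square difference in log2 was 0.09 for each of the nearest 5, against a median of 0.56 over all genes compared. They were Nus1 (log2 difference 0.78), which encodes a subunit of the enzyme that makes dolichol, Nars (0.77), the asparaginyl-tRNA synthetase gene, Dcun1d1 (0.81), a factor in cullin neddylation, the amino acid transporter gene Slc36a2 (0.78) and Mff (0.73), the mitochondrial fission factor gene. This ranking is a description of 8 arrays, on which the group difference makes up most of the profile.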

How the data were processed

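Total RNA of 8 samples was profiled on Illumina probes. The authors deposited 1 table of intensity values on a linear scale, and the submitters' processing notes name GenomeStudio; its version is not given in the sources used here. On each array between 28.28% and 28.44% of the values were below 0, and all arrays shared an upper quartile of 307.989 and a maximum of 41175, a pattern that quantile normalization gives, though no source used here states that step. No further scaling was applied. No detection p-values were used, and the number of arrays limits the precision.

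Of 25697 probes, 23978 had 1 gene symbol in the platform annotation, 0 had several and 1719 had none. Gene identifiers were matched to RefSeq for GRCm38.p6 (99.93% found, 0 symbols changed). Each of 16593 genes was represented by its probe of highest mean intensity, and probes were also tested singly. Values were floored at 16, taken as log2 and fitted with limma 3.58.1 (lmFit, eBayes with trend, two-sided) under R 4.3.3, with no term besides the group, and p-values were adjusted over all genes or all probes by Benjamini-Hochberg. The 95% intervals come from the same fit. Pairs of genes were compared by exact permutation of within-array log2 ratios over all 70 splits. The fit was tested on simulated data.

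The members, the lists and the tests were chosen with earlier results of these data known. Named were all 6 members, a set list of genes of the complex and its regulators, up to 4 called members of each list in each direction by smallest p, and the 5 profiles nearest to Pdk4. Genes outside this rule were named after their values were seen, to give ranges and small counts. So were Pdha2, Ldha, Cpt2, the second probes of Pdhb, Bckdk and Srebf1 and the further probes of Pparg and Kdm3a. Alternatives covered scaling, floor, pseudocount, filters, variance model, array weights, replicate block, probe choice, threshold and each array left out. The covariate for uneven treated arrays and the dimmer Pdp2 probe were added after seeing the data.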

Additional observations from a re-analysis of the deposited data

Results flagged for a closer look

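In 66 groups of 4 arrays, drawn from the 7 probes of the kinases and phosphatases and from the other named genes, 9 had 1 array standing far from the other 3 on the log2 scale, past Dixon's critical value for the gap over the group's range. Chance gives about 5% of groups where no value is set to the floor, and none of the 9 was a kinase or phosphatase probe. Pdhb on DMSO 2 was 12.53, against 12.60 to 12.61 on the other DMSO arrays. Dbt on treated 3 was 11.25, against 10.93 to 10.95, and Kdm3a on treated 3 was 12.10, against 11.99 to 12.01. Fabp4 on treated 2 was 8.34, against 8.14 to 8.17. Gpt2 on DMSO 1 was 9.55, against 9.36 to 9.39, and P4ha1 on DMSO 2 was 10.25, against 10.05 to 10.08. For 3 genes a single array rose above the floor of 4: Pdpr on DMSO 3 at 5.01, Ppara on DMSO 2 at 4.31 and Nr3c1 on treated 1 at 4.33. With the other 3 arrays at the floor such a group is flagged however small the rise, so the 5% does not hold for these.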

How the results depend on the processing

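Pdk4 was called higher under all 21 other settings that gave it a value, with a log2 difference of 0.69 to 0.82 and adjusted p of 3.77e-07 to 0.0379, the highest with the replicate number as a block. The count of genes called was 2516, and fell to 1123 with the replicate block and to 1194 at an adjusted p under 0.01. It was 1774 to 2465 with each array left out. The number of kinase and phosphatase genes called became 2 when probes of a gene were averaged and with the dimmer Pdp2 probe, and was 1 to 2 with each array left out, 2 without treated 4. For Pdp2 the log2 difference was 0.33 with its probes averaged and 0.63 with the dimmer probe, both called, and -0.0088 to 0.072 on the brighter probe with each array left out, turning sign without DMSO 2 (-0.0048) and treated 3 (-0.0088). Those ranges were 0.067 to 0.13 for Pdk1 and -0.19 to 0.0041 for Pdp1. The dimmer Pdp2 probe lost its call with the replicate block, at 0.63 (adjusted p = 0.0639). Same-numbered arrays did not pair (r of deviations -0.22 to 0.21), so the block is given here only. It also ended the calls of 7 other genes named, Dld (adjusted p = 0.0591), Dbt, Gpt2, Nr3c1, P4ha1, Kdm3a and Car9, and brought Ppm1k past the threshold (adjusted p = 0.0385). Without it, Esrra and Pdpr, neither called, turned sign: Esrra without DMSO 3, in a range of -0.0060 to 0.056 with each array left out, and Pdpr with array weights (-0.042) and with arrays left out, in a range of -0.084 to 0.30. The covariate for uneven treated arrays, itself taken from the deviations of these arrays, brought Hif1a (-0.32, adjusted p = 0.0241) and Ppara (0.56, adjusted p = 0.0406) past the threshold, and averaged probes brought Bckdk (0.16, adjusted p = 0.0393) and Pdhb past it. Over the 19 called genes of the other lists, 374 of 398 values kept the call and its direction and 24 lost the call. The counts of calls per list moved by over 1.5 times in 43 of 352 cases. No pair of genes passed under any of 12 settings, as with all arrays, and 15 pairs tested at a smallest p of 0.0286 leave little room for that. The number of arrays and dim signal near the floor limit Pdk2, Pdp1, Pdpr, Ppara and Nr3c1.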
